A study of Mus musculus with 3 samples.

Results

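Alveolar type 1 genes are genes that mark the flat cells lining the air sacs of the lung. Here they are Pdpn, Aqp5, Akap5, Rtkn2, Ager, Cav1 and Emp2, chosen by name and found through the RefSeq identifiers of the deposited table. All 7 genes had a row, and they filled 12 of the 16383 transcript rows. Values were RPKM, read counts scaled by transcript length and library size, in whole mouse lung (strain C57BL/6J/mixed background). The wild type (WT) was 1 library and the knockout of both Lin28a and Lin28b (DKO) was 2 libraries, DKO 1 and DKO 2. In the knockout, tamoxifen induced a Cre recombinase expressed from NKX2.1 (NKX2.1creERT, epithelial), which removed exon 2 of each gene between loxP sites. The Cre acts in epithelium, whereas every library is of all lung cells. The labels give no age, and they do not say whether WT carried the loxP or Cre alleles, or received tamoxifen. Nor do they say that DKO 1 and DKO 2 are different animals, so p-values measure only the spread between these libraries, which may be technical.

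Alveolar type 1 cells form most of the gas exchange surface and arise from distal epithelium late in lung development, alongside the surfactant-making type 2 cells. They are very thin, rich in caveolae, and carry water channels and adhesion proteins on their surface. YAP and TAZ with TEAD transcription factors, and NKX2-1, are known regulators of the type 1 fate. Several of the 7 genes are not exclusive to these cells. Cav1 is strong in endothelium, Pdpn also marks lymphatic endothelium and mesothelium, and Akap5 is used by many cells.

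The sequencing depth estimated from the low values was about 3.07e+07 to 4.87e+07 reads per library. Haemoglobin genes made up 5.36% of summed RPKM in WT against 7.24% in DKO 1 and 21.0% in DKO 2. The summed RPKM of the liver list was 7.55, 11.4 and 183 in the same order, and that of the immune list was 86.3, 471 and 237. Above WT in both DKO libraries were 6 of 7 tested erythroid transcripts (5 with quantile normalization), 3 of 5 liver and 7 of 9 immune transcripts, beside 32.1% of all tested transcripts, with 0 called by limma. Some of these, such as Klf1, Alb, Apoa2 and Laptm5, passed the filter on low values only through DKO libraries where they were high, so the counts are no support for a difference. The 4 Y-linked genes examined summed to 0 in WT against 22.3 in DKO 1 and 8.11 in DKO 2, so sex and genotype cannot be told apart. Lin28b had 0.449 RPKM in WT against 0.187 in DKO 1 and 0.590 in DKO 2, so the library labelled DKO 2 was not below WT for this targeted gene. Lin28a was not analysed here. Exon 2 was removed in epithelium alone, so reads from other exons or other cells check nothing, and DKO 1 and DKO 2 stand throughout for the libraries labelled so.

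The 7 genes fell into a measured and an unmeasured part. Akap5, Rtkn2, Emp2 and Aqp5, each with 1 row, were above 0 in all 3 libraries. Pdpn, Cav1 and Ager, with 2, 2 and 4 rows, were listed at 0 in every row and library, 8 of the 12 member rows. Over all 16383 rows, 68.0% were at 0 in every library, so this split is not particular to the members. The classical surface markers of type 1 cells, podoplanin and the RAGE receptor encoded by Ager, are thus among those listed at 0. The cell type named by the label could therefore not be checked by these markers. Gapdh, which nearly every cell uses, had 0.0144 to 0.185 RPKM, and whether the zeros are failed estimates was not tested.

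The promoters of Akap5, Emp2 and Aqp5 are shown because these are the measured members with a RefSeq promoter entry, and that of Ager because it is the classical marker listed at 0. Each runs from 250 bases before to 50 after the start, 5′ to 3′ on the gene's strand (RefSeq, GRCm38.p6). Capitals mark the GC box GGGCGG or its reverse complement, and the Ager sequence has none. The windows are chr12:76324641-76324940 for Akap5, chr16:10313919-10314218 for Emp2, chr15:99590778-99591077 for Aqp5 and chr17:34597600-34597899 for Ager.
Akap5: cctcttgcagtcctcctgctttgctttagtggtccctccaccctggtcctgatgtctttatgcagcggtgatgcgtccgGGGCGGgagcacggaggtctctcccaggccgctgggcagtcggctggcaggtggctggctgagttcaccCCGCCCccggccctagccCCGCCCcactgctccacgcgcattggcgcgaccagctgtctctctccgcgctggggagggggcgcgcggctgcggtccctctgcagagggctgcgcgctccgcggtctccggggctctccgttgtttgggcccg
Emp2: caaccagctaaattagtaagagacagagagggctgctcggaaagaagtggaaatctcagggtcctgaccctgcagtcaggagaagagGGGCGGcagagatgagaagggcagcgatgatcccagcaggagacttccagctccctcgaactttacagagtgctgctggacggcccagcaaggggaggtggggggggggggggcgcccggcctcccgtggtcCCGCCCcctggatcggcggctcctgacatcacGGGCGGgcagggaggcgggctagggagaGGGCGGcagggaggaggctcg
Aqp5: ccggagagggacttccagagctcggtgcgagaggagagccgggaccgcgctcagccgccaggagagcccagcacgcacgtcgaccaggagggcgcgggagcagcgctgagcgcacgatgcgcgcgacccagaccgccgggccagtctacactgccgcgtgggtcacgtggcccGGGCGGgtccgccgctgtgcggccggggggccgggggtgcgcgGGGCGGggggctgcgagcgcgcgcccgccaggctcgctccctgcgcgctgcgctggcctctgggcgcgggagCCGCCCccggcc
Ager: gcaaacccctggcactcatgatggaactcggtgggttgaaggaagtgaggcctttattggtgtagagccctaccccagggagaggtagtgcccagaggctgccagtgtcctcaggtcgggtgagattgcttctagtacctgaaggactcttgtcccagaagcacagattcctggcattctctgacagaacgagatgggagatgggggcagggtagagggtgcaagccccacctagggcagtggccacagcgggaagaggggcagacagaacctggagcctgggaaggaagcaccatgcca

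The Akap5 and Aqp5 promoters each held 3 GC boxes and that of Emp2 held 4, while 35.7% of 32851 promoters held at least 1. Of the genes listed at 0, the Pdpn promoter and the first Cav1 promoter each held 2, and the second Cav1 promoter held 0, as did Ager. Their GC content was 70.7% for Akap5, 65.7% for Emp2 and 79.7% for Aqp5, against a median of 52.7% over all promoters, with Aqp5 at percentile 98.8. Ager had 58.3%. Of the 7 promoters listed for 6 of the genes, 0 matched the TEAD motif CATTCC and 0 the NK2 homeodomain motif TNAAGTG on either strand, which 14.7% and 11.5% of all promoters held. The TATA box TATAAA matched 1, the first Cav1 promoter, and 13.6% of all. None of the 4 motifs contains another. A match is a run of letters only, and the GC-rich promoter of Aqp5 went with the lowest level of the 4 measured genes in WT and DKO 1.

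Akap5 encodes a scaffold that holds protein kinase A, protein kinase C and calcineurin near the membrane (NM_001101471, chromosome 12, 76324891 to 76334151 on the plus strand of mm10, 2 exons). Per transcript length it was the most abundant of the 4 measured genes, with 44.4 RPKM in WT against 56.1 in DKO 1 and 90.8 in DKO 2, about 14468, 11511 and 20744 reads. In order of RPKM from the highest it ranked 311 in WT, against 280 in DKO 1 and 226 in DKO 2 among all rows. Both DKO libraries lay above WT, and DKO 2 lay further above it than DKO 1. The ratio to WT was 1.26 in DKO 1 (95% exact binomial interval 1.23 to 1.29) and 2.04 in DKO 2 (2.00 to 2.09). The intervals cover counting error only and leave out the scaling of the libraries, whose summed RPKM was 376412, 396262 and 489056. As a share of that sum, Akap5 made up 0.0118% in WT against 0.0142% in DKO 1 and 0.0186% in DKO 2. On the log2(RPKM + 1) scale the difference was 0.67 (SE 0.80, limma adjusted p = 0.999), so it did not pass, and over 11 alternative fits the adjusted p ran from 0.922 to 0.999. The DKO libraries differed from each other by 0.68 on that scale, about as much as the mean difference from WT.

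Rtkn2 encodes rhotekin 2 (NM_001081346, chromosome 10, 67979598 to 68043864 on the plus strand, 13 exons). It had 1.44 RPKM in WT against 2.30 in DKO 1 and 1.72 in DKO 2, about 276, 277 and 231 reads. DKO 1 was the highest of the 3 libraries and WT the lowest. The ratio to WT was 1.59 in DKO 1 (95% exact binomial interval 1.34 to 1.89) and 1.19 in DKO 2 (0.996 to 1.42), so the second interval includes a ratio of 1. Its log2 difference was 0.29 (SE 0.71, limma adjusted p = 0.999, range 0.922 to 0.999 over 10 alternative fits). The antisense gene Gm16212 overlaps the Rtkn2 locus, and whether reads were assigned by strand is not given in the sources used here. This row was named through GENCODE, and the RefSeq table used here lists other transcripts of Rtkn2.

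Emp2 encodes epithelial membrane protein 2, a tetraspan protein of the PMP22 family (NM_007929, chromosome 16, 10281749 to 10313968 on the minus strand, 5 exons). It had 0.645 RPKM in WT against 1.54 in DKO 1 and 0.442 in DKO 2, about 108, 163 and 52 reads. WT lay between the DKO libraries. The ratio to WT was 2.40 in DKO 1 (95% exact binomial interval 1.87 to 3.08) and 0.685 in DKO 2 (0.483 to 0.963), so both intervals exclude a ratio of 1, on opposite sides. With a mean below 1 RPKM it was fitted without a filter on low values, where its log2 difference was 0.22 (SE 0.63, limma adjusted p = 0.937, range 0.894 to 0.991 over 9 alternative fits).

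Aqp5 encodes aquaporin 5, the water channel of the apical type 1 cell membrane (NM_009701, chromosome 15, GENCODE model from 99590782 to 99594829 on the plus strand, 4 exons). Of the 1797 exon bases of this model, 1551 lie within the RefSeq gene bounds, and the promoter window given above overlaps the start of the model. The level of Aqp5 was 0.0530 RPKM in the WT library, 0.0210 in DKO 1 and 0.867 in DKO 2, from about 4, 1 and 46 reads. Nearly all of its signal was in 1 library. DKO 1 stood at 0.397 of WT (95% exact binomial interval 0.00805 to 4.01), a difference not detectable at this depth. DKO 2 stood at 16.4 times WT (5.98 to 62.6), from 46 reads against 4. That interval takes the approximate reads as independent and holds no spread between libraries. In the fit without a filter the log2 difference was 0.39 (SE 0.52, limma adjusted p = 0.922, range 0.863 to 0.991 over 9 alternative fits). DKO 2 was also the library with the most haemoglobin and liver RNA, given above, and their part in the Aqp5 value was not tested.

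**Figure D1:**
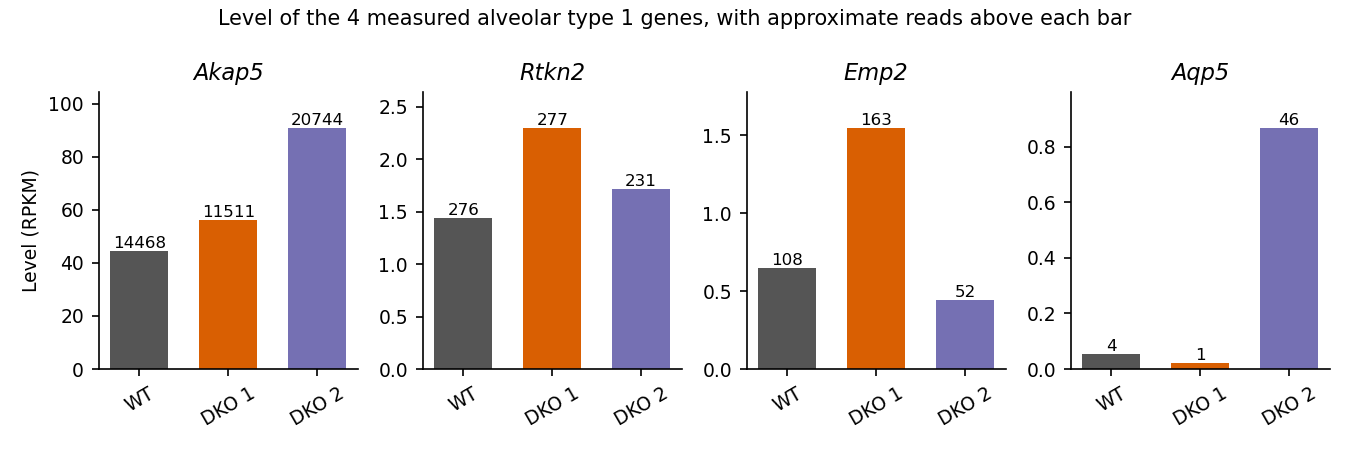
RPKM of Akap5, Rtkn2, Emp2 and Aqp5 in the 1 WT and 2 DKO libraries, 1 bar per library on a linear axis from 0, with the approximate number of reads above each bar. Akap5 was highest in DKO 2, Rtkn2 and Emp2 in DKO 1, and Aqp5 rested on 46 reads in DKO 2 against 4 and 1 in the others.

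The 4 genes thus did not share an order of the libraries. Akap5 and Aqp5 were highest in DKO 2, and Rtkn2 and Emp2 in DKO 1. Their levels per length were far apart within each library, and Akap5 was 30.8-fold above Rtkn2 in WT against 24.4-fold in DKO 1 and 52.8-fold in DKO 2. The next gene in the order, Emp2, was below Rtkn2 in all 3 libraries. Aqp5 was the lowest of the 4 in WT and DKO 1 and exceeded Emp2 in DKO 2.

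Over the 2066 transcripts averaging 1 RPKM or more, limma called 2, or 0.0968%, with 1 higher and 1 lower (15 higher and 1 lower with median scaling, 13 higher and 1 lower with haemoglobin removed). Of the member transcripts, Akap5 and Rtkn2 were in this fit and 0 were called. In the fit without a filter, which held 5245 transcripts above 0 in some library, limma called 0%, and 260 had an unadjusted p under 0.05. None of the 4 genes was called there. By a rule of size, at least 2-fold above WT in both DKO libraries with these closer to each other than to WT, 3.19% of the 2066 transcripts were higher, and neither Akap5 nor Rtkn2 was.

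Akap5 and Rtkn2 lay above WT in both DKO libraries, as did 32.1% of the transcripts tested, while 31% lay below it in both (664 and 640 transcripts, or 516 and 849 when each library was rescaled to a fixed total). With that rescaling Rtkn2 lay on either side of WT, and the median log2 difference of all tested transcripts moved from −0.01 to −0.19, against 0.45 for Akap5. The median over Akap5 and Rtkn2 was 0.48. Among all tested transcripts, Akap5 stood at percentile 71.2 by its difference in DKO 1 and 85.2 in DKO 2, and Rtkn2 at 76.0 and 55.6. Both thus lay within the body of the distribution.

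**Figure D2:**
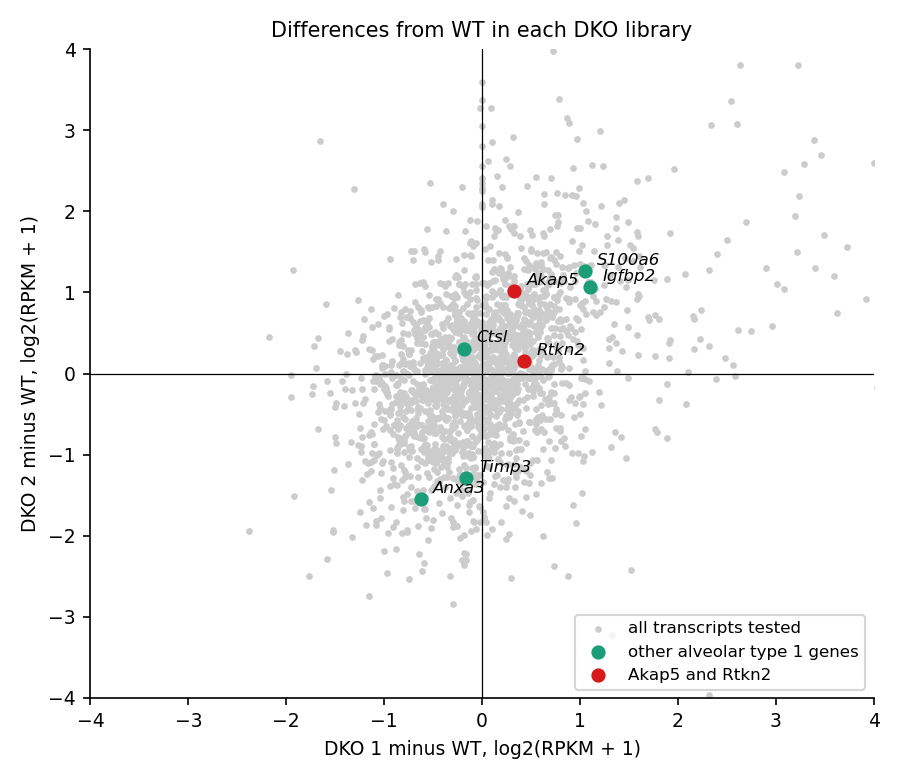
Difference from WT on the log2(RPKM + 1) scale in DKO 1 (horizontal) and DKO 2 (vertical), 1 point per transcript, for all 2066 transcripts tested (grey), Akap5 and Rtkn2 (red) and 5 other alveolar type 1 genes (green); 10 transcripts lie outside the axes. Akap5 at 0.33 and 1.01 and Rtkn2 at 0.43 and 0.15 lie among the grey points.

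By the distance between the pair of differences from WT, Lamb2 (WT 0.424, DKO 1 0.794 and DKO 2 1.90 RPKM) and Nid1 (log2 differences of 0.33 in DKO 1 and 1.03 in DKO 2) were nearest to Akap5. They encode laminin beta 2 and nidogen 1, and Lamb2 passed the filter on low values only through DKO 2, where it was high. Nearest to Rtkn2 were Lypla2 (1.12, 1.80 and 1.34 RPKM, an acyl-protein thioesterase) and Rps18 (6565, 9077 and 7368 RPKM). Such nearness rests on 3 libraries and is common, since 45 transcripts lay within 0.2 of Akap5 and 51 within 0.2 of Rtkn2.

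For the genes listed at 0, the gene models bear on how reads could be assigned. Pdpn encodes podoplanin, a mucin-type glycoprotein that links to ezrin and moesin (chromosome 4, 143267431 to 143299564, minus strand). Every exon base of its shorter transcript, NM_001290822, is shared with NM_010329. NM_010329 has 1055 of 1817 bases (58.1%) to itself and was still listed at 0. Cav1 encodes caveolin-1, the main coat protein of caveolae (chromosome 6, 17306335 to 17341452, plus strand). Its row NM_007616 has 145 of 2522 bases (5.75%) to itself and NM_001243064 has 369 of 2746 (13.4%). The antisense gene Gm15581 overlaps the Cav1 locus. Ager encodes the receptor for advanced glycation end products, long used as a type 1 cell marker (chromosome 17, 34597862 to 34600936, plus strand). Among its 4 rows, NM_001271422 has 4 private bases and the others have none, counting the RefSeq transcripts of the gene that have a GENCODE model.

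Across the table, of 7861 genes with 1 row, 44.5% were listed at 0 throughout, against 75.2% of 1650 genes with 2 rows and 78.4% of 310 genes with 4 rows. Among transcripts of genes with 2 rows and distinct GENCODE models, 91.4% of those with under 10% private bases were listed at 0. The share was 75.3% for those with 10 to 50% and 60.7% for those with 50 to 90%, beside 68.0% of all rows. These bins hold no gene with 4 rows, such as Ager. Listing at 0 was thus common over the whole table, and not only for rows like those of Pdpn and Cav1. How the authors treated reads shared by several transcripts is not stated, and its part in the zeros was not tested. No level or change of these 3 genes can be read from the table.

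**Figure D3:**
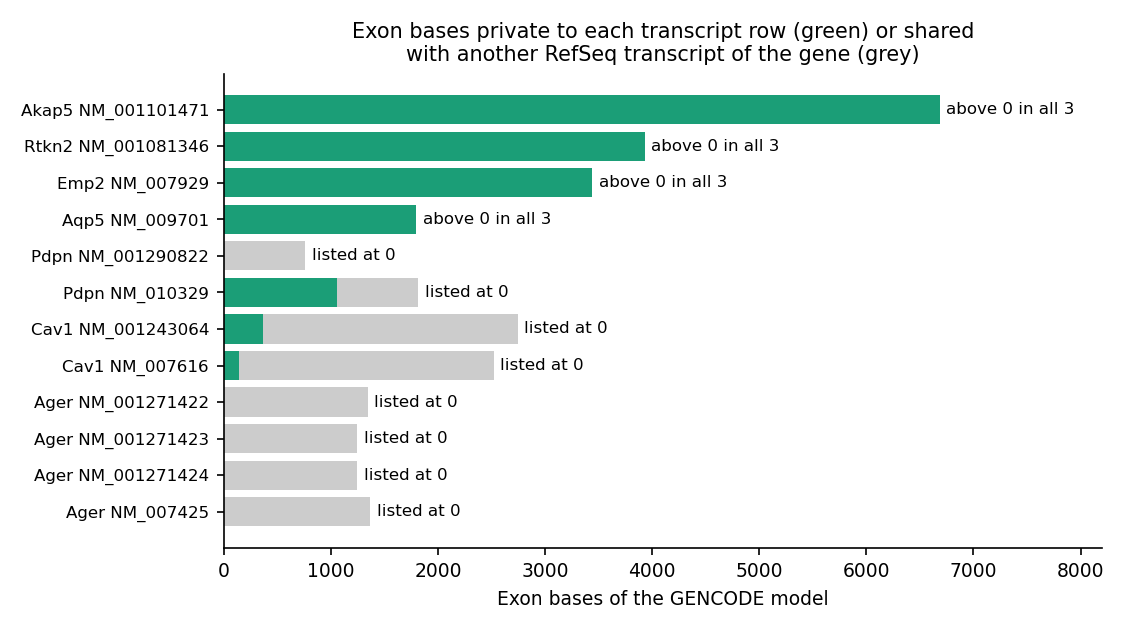
Exon bases of each of the 12 member rows, split into bases private to the row (green) and bases shared with another RefSeq transcript of the gene that has a GENCODE model (grey). The 4 rows above 0 in all 3 libraries are wholly private, and the 8 rows listed at 0 are mostly or wholly shared except NM_010329 of Pdpn.

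Other genes known from alveolar type 1 cells were measured in part. Of all genes in the table, 44.5% of those with 1 row and 76.2% of those with 2 or more were listed at 0 throughout. These shares stand beside the counts at 0 in this list and those below, and nothing is read from such counts. Of 31 other type 1 genes, 22 had a row, 8 of these were listed at 0 throughout and 5 were tested. Of the 5, 2 lay above WT in both DKO libraries, 2 below and 1 on either side (below in both with rescaling to a fixed total), and 0 were called by limma, each with an adjusted p of 0.999. Igfbp2, which encodes a secreted binder of insulin-like growth factors, had 37.5 RPKM in WT against 81.5 in DKO 1 and 79.8 in DKO 2, and S100a6, a calcium-binding protein, had 24.0, 50.8 and 59.1. Both passed the rule of size as higher, as did 3.19% of all tested transcripts. They passed it narrowly, with smaller log2 differences of 1.07 for Igfbp2 and 1.05 for S100a6 against a limit of 1. Anxa3, encoding annexin A3, had 16.2, 10.1 and 4.85 RPKM, and Ctsl, encoding cathepsin L, had 22.5, 19.7 and 28.1. Timp3, an inhibitor of metalloproteinases, named after its values were seen, had 2.85, 2.44 and 0.575. Hopx, a homeodomain protein of type 1 cells also named afterwards, had 0.0793 RPKM in DKO 1, with 0 listed for WT and DKO 2. With 5 transcripts, the counts above and below WT are near the 32.1% above and 31% below among all tested transcripts. Nothing is read from them, or from the 2 past the rule of size.

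Among 22 regulators of the type 1 fate, including members of the Hippo pathway, 19 had a row and 6 of these were listed at 0. Nkx2-1, Yap1, Wwtr1 (encoding TAZ), Tead2, Tead3 and Tead4 had no value above 0, and Tead1 had 0, 0.0262 and 0.0499 RPKM. Of 8 tested transcripts, 0 were called. Above WT in both DKO libraries were 4, with 2 below and 2 on either side (3 below under each other scaling, through Ccn1). Among all tested transcripts 32.1% lay above and 31% below. Lats2 and Ccn2 were under 1 RPKM in WT and passed the filter through DKO libraries. Foxa1 passed it only through WT, so the counts are no support for a difference. Gata6, an endodermal transcription factor, had 4.19 RPKM in WT against 7.91 in DKO 1 and 7.16 in DKO 2. Hdac3, a histone deacetylase, had 11.7, 15.7 and 23.0 RPKM. The YAP target Ccn2 had 0.983, 1.10 and 4.92 RPKM, while Ccn1, another such target, had 4.93, 4.68 and 5.16. The pair of YAP targets thus parted, with the difference of Ccn2 resting on DKO 2.

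Of 5 tested transcripts of AKAP5 scaffold partners, 1 lay above WT in both, 1 below and 3 on either side, and 0 were called. The 1 above, Ppp3cc (0.496, 0.770 and 1.91 RPKM), passed the filter only through DKO 2, where it was high. Ppp3ca, the calcineurin A alpha subunit, had 8.79 RPKM in WT against 6.72 in DKO 1 and 3.61 in DKO 2, in the order opposite to Akap5. Ppp3cb, the beta subunit, had 3.71, 4.07 and 2.65 RPKM, and Prkar2b, a regulatory subunit of protein kinase A, had 3.04, 4.12 and 1.62. Nfatc3, a calcineurin-regulated transcription factor, had 2.30, 1.32 and 3.19 RPKM. Of the 15 A-kinase anchoring proteins listed, 7 had a row and 4 of these were listed at 0. Akap11 had 0.659, 0.474 and 0.618 RPKM, and Akap14 had 0.0458 RPKM in WT and was listed at 0 in both DKO libraries, so Akap5 stood far above both per length.

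In the family of Emp2, Pmp22 had 13.4, 23.6 and 30.5 RPKM and did not pass (limma adjusted p = 0.999), and Emp1 and Emp3 had values above 0 in DKO 1 alone. No aquaporin reached a mean of 1 RPKM. Aqp1, the endothelial water channel, had 0.432, 0.839 and 0.847 RPKM, above Aqp5 in WT and DKO 1 and near it in DKO 2.

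Partners of the genes listed at 0 could be measured in part. In the caveola list, 2 of 4 tested transcripts lay above WT in both DKO libraries and 2 on either side, with 0 called. Among all tested transcripts 32.1% lay above WT in both. Cavin1, a caveolar coat protein, had 9.61 RPKM in WT against 9.18 in DKO 1 and 20.7 in DKO 2. Flot1, a flotillin, had 1.10, 0.712 and 7.47 RPKM, and Ehd1 had 2.16, 2.69 and 3.74. Cav2, which pairs with caveolin-1, was listed at 0 in the WT library but reached 0.993 RPKM in DKO 1 and 2.46 in DKO 2, and passed the filter only through these.

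Of the genes known as RAGE ligands or partners, 6 were tested, and 0 were called by limma. Above WT in both DKO libraries were 5, and 1 was below (4, 1 and 1 on either side with quantile normalization). Among all tested transcripts these shares were 32.1% and 31%. Of the 5, S100b (0.247, 0.471 and 2.46 RPKM) passed the filter only through DKO 2, where it was high, so the count is no support for a difference. Hmgb1, a nuclear protein that binds RAGE when released, had 1077 RPKM in WT against 671 in DKO 1 and 341 in DKO 2. S100a1 had 158, 263 and 305 RPKM, and S100a8, a neutrophil protein, had 3.04, 72.2 and 108 (limma adjusted p = 0.0546). S100a6, above, is also in this list. The immune list summed higher in both DKO libraries, as given above, and its part in the S100a8 difference was not tested. Among podoplanin partners, 0 of 3 tested transcripts lay above WT in both, 1 lay below and 2 on either side. The tetraspanin Cd9 had 13.2, 7.38 and 2.75 RPKM, the membrane-actin linker Ezr 3.81, 2.35 and 5.75, and Msn 3.01, 2.78 and 4.96.

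**Figure D4:**
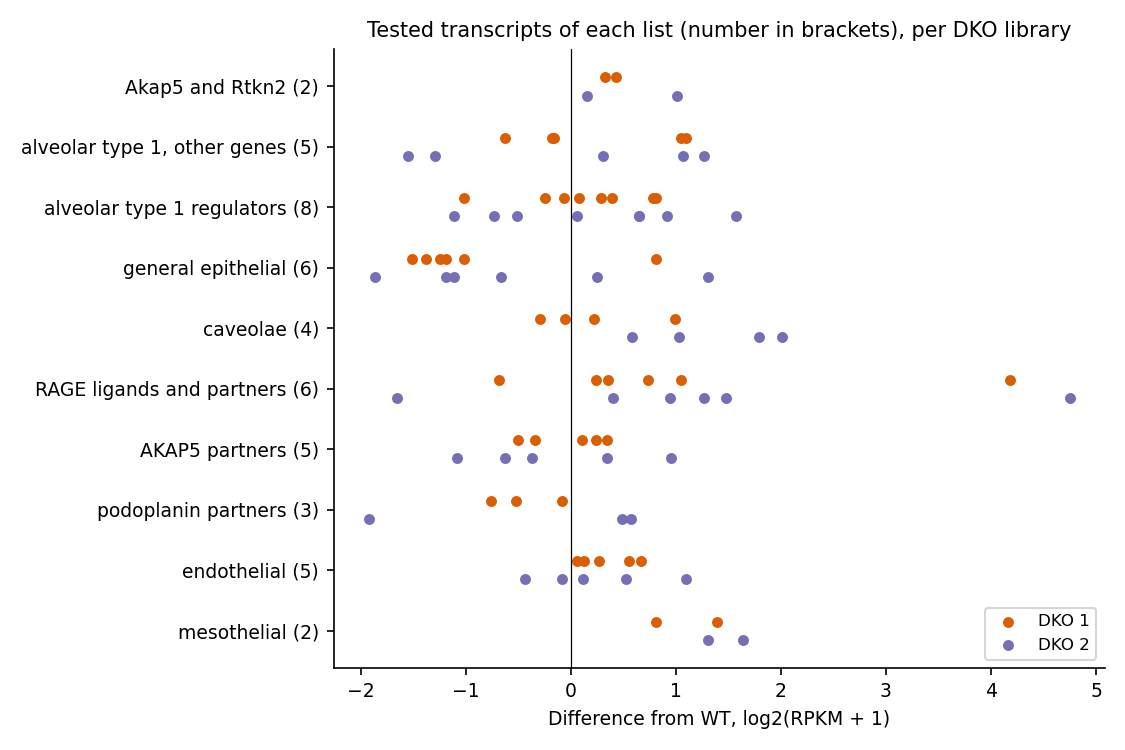
Difference from WT on the log2(RPKM + 1) scale for each tested transcript of 10 gene lists, with DKO 1 and DKO 2 as separate points and the number of transcripts in brackets. Points of most lists lie on both sides of 0, including the 5 other alveolar type 1 genes, and 4 of the 6 general epithelial transcripts lie below 0 in both libraries (5 with rescaling to a fixed total). Of these, Foxa1, Irx1 and Irx2 passed the filter on low values only through WT.

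Markers of other cells that could supply these transcripts were examined beside them. In the general epithelial list, 4 of 6 tested transcripts lay below WT in both DKO libraries, 1 above and 1 on either side (5 below and 1 above with rescaling to a fixed total), beside 31% of all tested transcripts below in both. None was called by limma, and 3 passed the rule of size as lower, as did 31 of the 2066 transcripts. In WT, DKO 1 and DKO 2, these were Foxa1 (2.64, 0.798 and 0.688 RPKM), Irx1 (3.47, 0.569 and 0.964) and Irx2 (3.72, 1.07 and 0.297). All 3 passed the filter on low values only through WT, where they were high, so the counts are no support for a difference. For Epcam, which encodes a cell adhesion protein of epithelia, the WT library held 17.4 RPKM against 6.75 and 10.6 in DKO 1 and DKO 2. Akap5 lay above WT and Epcam below it in both DKO libraries. Among the epithelial keratin genes, Krt18 had 12.2, 4.10 and 14.7 RPKM, below WT with Epcam in DKO 1 but above it in DKO 2. With rescaling to a fixed total, Krt18 lay below WT in both. Krt19 did not follow Epcam, with 3.08, 6.17 and 9.11 RPKM, above WT in both. In whole lung, fewer cells of a type and less RNA per cell cannot be told apart. In the alveolar type 2 list, 2 of 3 tested transcripts lay above WT in both DKO libraries and 1 below, beside 32.1% and 31% of all tested transcripts. Above were Ctsh, which encodes cathepsin H (1.04, 2.39 and 2.92 RPKM), and S100g, a calcium-binding protein that passed the filter only through DKO 2 (0.214, 0.815 and 39.0 RPKM), and neither was called (limma adjusted p = 0.999). Below was Sftpc, the 1 transcript called, which encodes surfactant protein C and was lower in the DKO libraries (369, 7.55 and 0.0364 RPKM, limma adjusted p = 0.0199; not called without a filter, with quantile normalization, with a fixed total or with robust moderation). Akap5 and Rtkn2, by contrast, did not pass, and the difference between Sftpc and them was not tested.

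Of the 23 endothelial markers, which bear on Cav1, 18 had a row, 7 of these were listed at 0 and 5 were tested. Above WT in both DKO libraries were 3, with 2 on either side (2 and 3 with rescaling to a fixed total), beside 32.1% of all tested transcripts. Of the 3, Sox18 (0.850, 1.93 and 2.94 RPKM) passed the filter only through DKO libraries, so the count is no support for a difference. The summed RPKM of the endothelial list was 17.1 in WT against 22.4 in DKO 1 and 23.0 in DKO 2. Cldn5, the endothelial claudin, had 6.89, 7.60 and 10.4 RPKM and Cdh5, the endothelial cadherin, 2.39, 2.53 and 2.19. Pecam1 and Tek were among those listed at 0. Both tested mesothelial genes were above WT in both DKO libraries, as were 32.1% of all tested transcripts. Aldh1a2 had 3.75, 11.4 and 13.8 RPKM, and Krt19, also in the epithelial list, had the values above. No lymphatic marker reached a mean of 1 RPKM, with a summed RPKM of 0.533, 0.400 and 0.288. For the junction and sodium transport genes of the alveolus, 1 transcript was tested, Slc12a2, with 3.74, 2.16 and 1.21 RPKM, and 0 were called. The part of these cell types in the values of Akap5, Rtkn2, Emp2 and Aqp5 was not tested.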

How the data were processed

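Whole-lung total RNA was extracted with Trizol and made into 1 WT and 2 DKO libraries with a Clontech SMARTer kit for low input, per the labels' protocols. The authors deposited RPKM for RefSeq transcripts. The submitters' processing notes name cutadapt, TopHat2, HTSeq, edgeR and mm10. For versions, transcript lengths and read assignment, the sources used here give nothing.

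Identifiers were named by RefSeq (16151 rows) and GENCODE (77), leaving 155 unnamed. Values were taken as log2(RPKM + 1), which understates changes of low genes. limma 3.58.1 in R 4.3.3 was run on transcripts averaging 1 RPKM or more (eBayes with a mean-variance trend, two-sided). Calls needed an adjusted p (Benjamini-Hochberg) under 0.05. The fit had 1 residual degree of freedom, from the DKO libraries, so WT was taken to vary as they do. Moderation added 11.2 prior degrees of freedom (1.24 without a filter) from the spread pooled over all fitted transcripts. The SE of a single transcript thus rests in large part on that pooled spread. The procedure was tested on simulated data.

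RPKM times length, from GENCODE exons within the RefSeq gene bounds, gave the worth of 1 read as the commonest step. Of values of 1 to 100 reads, 50.2% to 57.7% lay within 0.05 of a whole read (10% if evenly spread). Reads are thus approximate, and no p-value was taken from them. Intervals (95%) were computed on these reads, rounded and taken as independent. They cover counting error only, so one that excludes a ratio of 1 does not establish a difference between WT and DKO. Depth sets what can be seen: 4 reads of Aqp5 in WT carry little precision, and 14468 of Akap5 much.

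The members and gene lists were chosen with earlier results of these data known. The text names all members, from each list at most the 4 tested transcripts of highest mean RPKM, and the 2 nearest transcripts to each tested member, with Lin28b and Sftpc as checks. Gapdh and the named list genes under the filter (such as Hopx, Akap11, Akap14, Aqp1, Emp1, Emp3, Pecam1 and Tek), and Timp3, Klf1, Alb, Apoa2 and Laptm5, were chosen after their values were seen. So were Foxa1, Irx1, S100b, Lats2, Sox18, Ppp3cc and the named genes of NKX2-1, YAP, TAZ and the TEAD factors. One gene list is not reported here. Alternatives were pseudocounts of 0.1 and 5, no filter or one at 5 RPKM, 4 scalings, moderation without trend or robust, a 1.5-fold rule, summed rows and leaving out each DKO library.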

Additional observations from a re-analysis of the deposited data

How the results depend on the processing

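No paired analysis was possible because WT has 1 library and the groups share fewer than 2 replicate numbers. Akap5, Rtkn2, Emp2 and Aqp5 were called in none of their 9 to 11 alternative fits and kept a positive mean difference in each. Their log2 differences ran from 0.45 to 0.68 for Akap5, 0.12 to 0.44 for Rtkn2, 0.08 to 0.34 for Emp2 and 0.10 to 1.16 for Aqp5. Without DKO replicate 1 the value of Emp2 was −0.19 and that of Aqp5 0.83, and without DKO replicate 2 they were 0.63 and −0.044. The median of Akap5 and Rtkn2 was 0.67 with the filter at 5 RPKM, where Akap5 alone was tested, 0.30 with a fixed total, and 0.38 to 0.58 when a DKO library was left out.

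Over all transcripts, limma called 13 with a pseudocount of 0.1, 1 with a pseudocount of 5, 10 with the filter at 5 RPKM, 16 with median scaling and 14 with haemoglobin removed. It called 0 without a filter (260 with an unadjusted p under 0.05), 0 with quantile normalization (45) and 0 with a fixed total (36). The rule of size counted 97 transcripts, 66 higher and 31 lower (55 and 53 with a fixed total), and 166 with a pseudocount of 0.1, 34 with 5, 50 with the filter at 5 RPKM and 275 at 1.5-fold. Transcripts above and below WT in both DKO libraries numbered 1276 and 1605 without a filter and 327 and 334 with the filter at 5 RPKM. With a single DKO library, 280 to 555 passed 2-fold, 1014 to 1076 lay above and 990 to 1041 below. The cause of these shifts was not tested, beyond the number of transcripts and libraries that enter.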
